A study of Arabidopsis thaliana with 15 samples.

Results

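The 10 genes described here code for proteins that drive plant cells into and out of mitosis. They are the B1-type cyclins CYCB1;1 to CYCB1;4, the plant-specific cyclin-dependent kinases CDKB1;1, CDKB1;2, CDKB2;1 and CDKB2;2, and the anaphase activators CDC20.1 and CDC20.2. They were taken by gene identifier from a table of 21777 genes, and were chosen by their normalized counts in the 5 genotypes, which were known. Their levels are therefore given as a description, and counts of members past a threshold, given once beside the share of all genes, support nothing. RNA of Arabidopsis thaliana seedling shoots was depleted of ribosomal RNA and sequenced in 15 libraries, 3 per genotype. All seedlings were 12 days old and had grown on half-strength MS medium in days of 16 h light and 8 h dark. WT was the wild type. The single mutants rps6a and rps6b were each mutant in the gene of that name. RPS6A and RPS6B encode the ribosomal protein eS6, which sits in the small subunit. The groups eS6A-HA and eS6A-Δ6SA were both mutant in RPS6A and RPS6B and carried a transgene of that name. The labels give neither the promoter of the transgenes nor the number of lines, and they do not say whether libraries came from separately grown plants. P-values of other genes thus measure the spread between these libraries, which may be technical.

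In plant cells, as in other eukaryotes, a cyclin binds a cyclin-dependent kinase (CDK), and B-type cyclins accumulate as cells pass from G2 phase into mitosis. CDKB genes are found in plants, where CDKB1 and CDKB2 transcripts mark late stages of the division cycle. CDC20 then activates the anaphase-promoting complex (APC/C), a ubiquitin ligase that has B-type cyclins degraded so that mitosis can end. Genes expressed at G2 and mitosis often carry the mitosis-specific activator (MSA) element, which MYB3R transcription factors bind. CYCB1;1 is also known in Arabidopsis to be induced by DNA damage through the transcription factor SOG1. In a shoot of this age such transcripts come mainly from dividing cells of the meristem, young leaves and the stomatal lineage.

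Each of the 10 genes had a higher mean level than WT in both rps6a and rps6b. Their summed level was 290 ± 37.8 normalized counts in WT (SD, n = 3), 596 ± 52.7 in rps6a and 618 ± 18.1 in rps6b. It was 470 ± 60.5 in eS6A-Δ6SA and 254 ± 22.2 in eS6A-HA. Relative to the WT mean these sums came to 2.05 times in rps6a, 2.13 in rps6b, 1.62 in eS6A-Δ6SA and 0.874 in eS6A-HA. A normalized count is the number of reads divided by a size factor of the library. All libraries of rps6a and rps6b lay above those of eS6A-Δ6SA, which lay above those of WT and eS6A-HA. The values of rps6a and rps6b overlapped, as did those of WT and eS6A-HA. In bulk samples such as these, more or fewer cells of a type and more or less RNA per cell cannot be told apart.

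**Figure D1:**
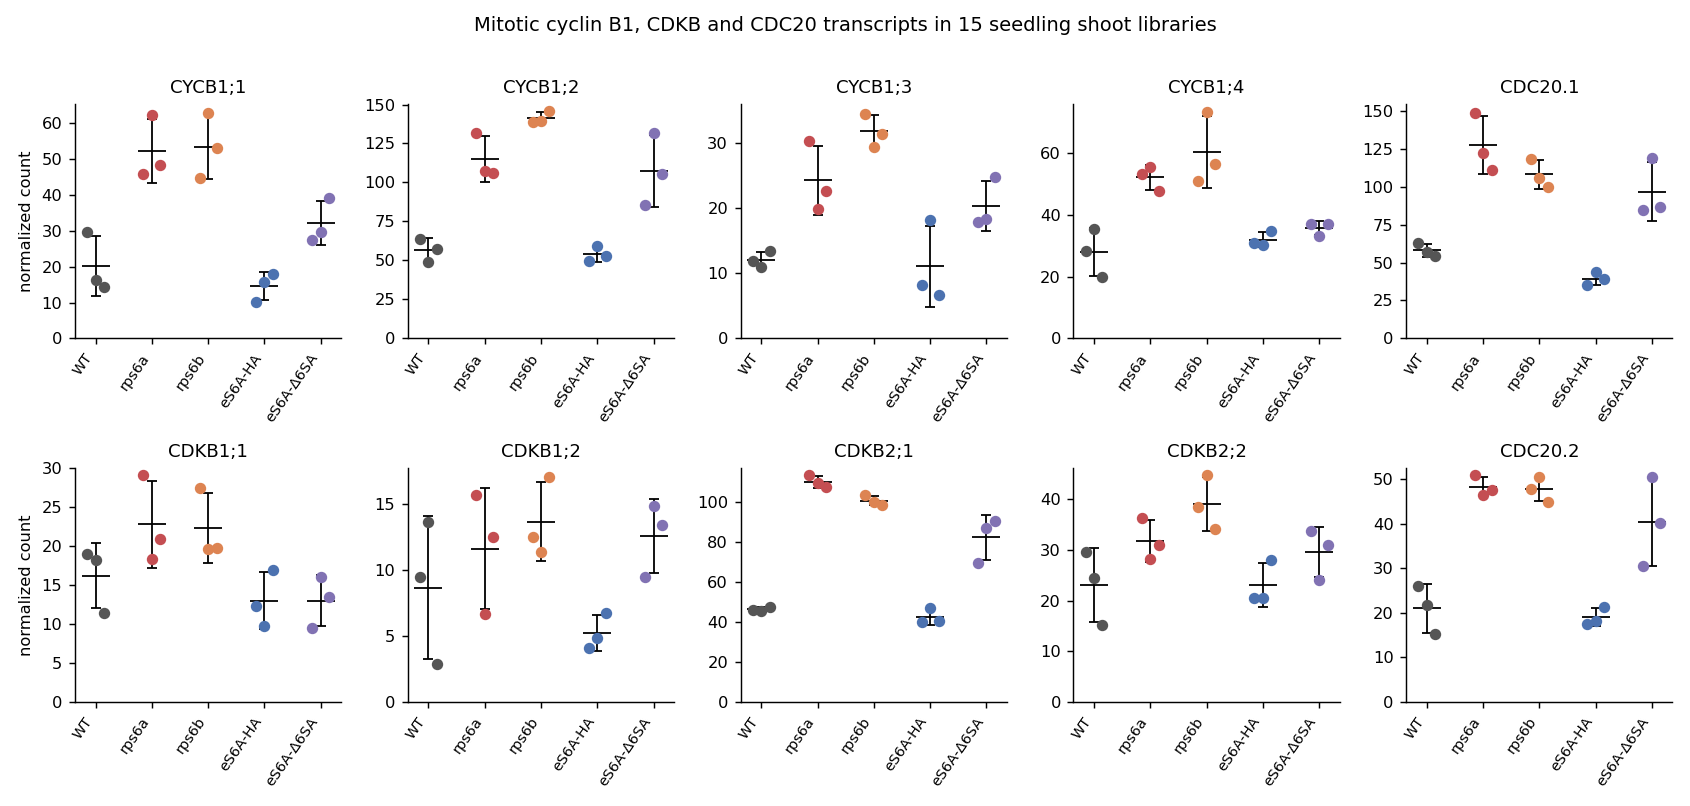
Normalized count of each gene (vertical axis, from 0) in the 5 genotypes (horizontal axis). Points are the 3 libraries of a genotype, horizontal dashes their mean and bars 1 SD. For CDKB2;1 the WT libraries sit between 45.4 and 47.7 and the rps6a libraries between 108 and 114. For CDKB1;2 the WT and rps6a libraries overlap, whereas all eS6A-Δ6SA libraries lie above those of eS6A-HA.

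Because members of a family can be similar in sequence, the share of each transcript that other transcripts also hold was counted first, in the RefSeq annotation of TAIR10.1. Of the 10 genes, 5 shared no stretch of 75 bases, the read length, with the transcript of another gene, and the other 5 are described next. CDC20.1 and CDC20.2 are neighbours on chromosome 4, 619 bases apart, and their coding sequences were 97.5% identical. They shared 518 stretches, 25.6% of those in CDC20.1 and 27.8% of those in CDC20.2, so the split of reads between the pair is uncertain. For CYCB1;2, 3.46% of the stretches also occurred in CYCB1;5. CDKB1;2 and CDKB2;2 shared 10.6% and 8.95% with AT2G38630 and AT1G20925, which overlap them on the opposite strand. The other gene of each CDKB pair is among the 5, yet it also overlaps a gene on the opposite strand. In the CDKB1 pair this overlap spans 71 exon bases with AT3G54190. That gene averaged 204 normalized counts in WT, against 16.2 for the CDKB1 gene it overlaps. In the CDKB2 pair it spans 44 exon bases with AT1G76530, which averaged 2.45 in WT. The 5 are thus not all free of overlap. Whether counting used strand is not given in the sources used here, so reads of these overlaps cannot be assigned.

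The sequence just upstream of each gene was read for the MSA core, since the genes were chosen as a group that moves together. The core AACGG was searched on both strands of the 250 bases before the annotated start of 27443 genes in TAIR10.1. It occurred at least once upstream of 4 of the 10 genes, against 20.6% of all genes searched. At least 3 matches were found upstream of 3 of the 10, against 0.736% of all. The numbers of matches were 4 for CYCB1;2, 3 each for CYCB1;1 and CYCB1;3, and 1 for CDKB2;2. A longer form, CNAACGG, which overlaps the core, matched upstream of 3 of the 10 genes, against 4.50% of all. A SOG1 palindrome, CTT and AAG with 7 bases of any kind between them, matched upstream of CDKB1;2 alone, against 9.71% of all. The E2F site TTTCCCGC matched upstream of 0 of the 10, against 0.619% of all. A match describes letters in this window and says nothing of binding.

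The upstream stretches that hold the core are shown, since most of these matches lie before B1 cyclins. All are on the minus strand and run 5′ to 3′ toward the gene, with the core or its reverse complement CCGTT in capitals. In the order printed they lie at chr4:17624309-17624496, chr5:1861704-1861866, chr3:3627274-3627357 and chr1:7294811-7294855.
CYCB1;1: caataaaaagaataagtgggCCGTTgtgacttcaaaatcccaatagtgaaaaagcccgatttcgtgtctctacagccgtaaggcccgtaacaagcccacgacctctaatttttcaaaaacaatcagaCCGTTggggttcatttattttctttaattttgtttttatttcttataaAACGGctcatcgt
CYCB1;2: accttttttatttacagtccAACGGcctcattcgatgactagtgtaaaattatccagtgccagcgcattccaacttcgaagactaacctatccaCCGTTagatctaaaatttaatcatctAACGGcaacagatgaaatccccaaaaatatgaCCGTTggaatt
CYCB1;3: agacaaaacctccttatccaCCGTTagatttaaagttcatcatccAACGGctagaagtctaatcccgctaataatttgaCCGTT
CDKB2;2: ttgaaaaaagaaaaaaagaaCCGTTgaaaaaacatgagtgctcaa

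**Figure D2:**
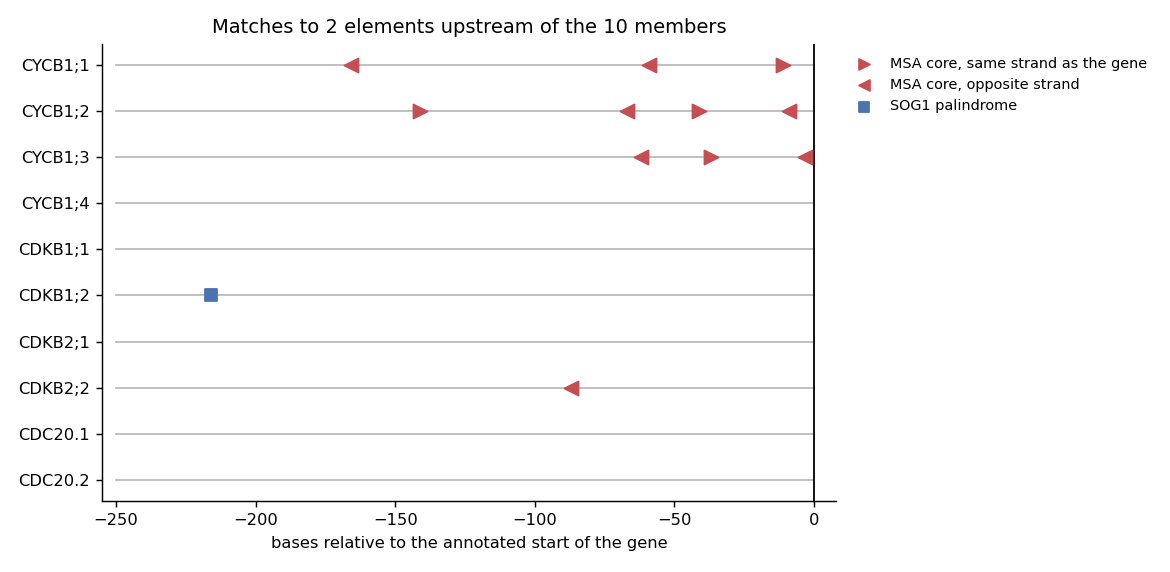
Positions of matches upstream of the 10 genes, in bases relative to the annotated start (horizontal axis). Triangles mark the MSA core and point along the strand it is on, and the square marks the SOG1 palindrome. Matches to the core lie within 168 bases of the start in the 4 genes that have them.

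CYCB1;2 and CYCB1;3 had coding sequences that were 76.0% identical, the highest identity among the 4 cyclins. The lowest was 64.5%, between CYCB1;1 and CYCB1;4. The CDKB pairs were closer, with 85.9% within CDKB1 and 86.6% within CDKB2.

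CYCB1;1 (AT4G37490, chromosome 4), the B1 cyclin used most widely as a marker of dividing cells, had the largest log2 fold change of the 10 genes in both single mutants when all libraries were used. This order changed without WT replicate 3, where it was at 1.19 in rps6a with CDKB2;1 at 1.25, and at 1.23 in rps6b with CYCB1;3 at 1.40. It also changed without rps6b replicate 2, where the same pair stood at 1.30 and 1.38 in rps6b. Its normalized counts were 29.6, 16.3 and 14.3 in the 3 WT libraries, 46.0, 62.3 and 48.5 in rps6a, and 44.7, 62.7 and 53.0 in rps6b. They were 10.3, 15.8 and 18.0 in eS6A-HA and 27.4, 29.8 and 39.2 in eS6A-Δ6SA. Every rps6a and rps6b library lay above every WT library. A single WT library, replicate 1, reached into the range of eS6A-Δ6SA. The log2 fold change against WT was 1.39 (SE 0.25) in rps6a and 1.42 (SE 0.25) in rps6b. It was 0.70 (SE 0.25) in eS6A-Δ6SA and −0.39 (SE 0.25) in eS6A-HA. Over all settings tried, the change ranged from 1.19 to 1.74 in rps6a and from 1.23 to 1.73 in rps6b.

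CYCB1;2 (AT5G06150, chromosome 5) had the highest level of the 4 cyclins in each genotype. It took 48.7% ± 5.39 of their summed counts in WT, 47.1% ± 3.37 in rps6a, 49.4% ± 3.19 in rps6b, and then 54.6% ± 6.27 in eS6A-Δ6SA and 48.3% ± 1.52 in eS6A-HA (SD, n = 3). Its counts were 64.0, 49.0 and 57.2 in WT, 132, 107 and 106 in rps6a, and 139, 139 and 146 in rps6b. They were 49.4, 59.5 and 52.8 in eS6A-HA and 85.5, 132 and 105 in eS6A-Δ6SA. The WT and eS6A-HA values overlapped and all other groups lay above them. The rps6b libraries were also above the rps6a libraries, with a log2 difference of −0.30 (SE 0.15) in rps6a against rps6b. This order of libraries was seen in 10.4% of all tested genes. The log2 fold changes against WT were 1.01, 1.31, −0.07 and 0.90 (SE 0.15) in rps6a, rps6b, eS6A-HA and eS6A-Δ6SA.

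CYCB1;3 (AT3G11520, chromosome 3) had the lowest level of the 4 in every genotype. Its mean was 12.0 ± 1.24 in WT, 24.2 ± 5.36 in rps6a and 31.8 ± 2.60 in rps6b. It was 20.34 ± 3.82 in eS6A-Δ6SA and 11.1 ± 6.23 in eS6A-HA. The eS6A-HA spread came from replicate 2, at 18.2 against 8.23 and 6.74 in the others. CYCB1;4 (AT2G26760, chromosome 2) averaged 27.96 ± 7.70 in WT, 52.2 ± 4.10 in rps6a and 60.3 ± 11.6 in rps6b. In eS6A-Δ6SA it reached only 35.8 ± 2.19, and in eS6A-HA 32.0 ± 2.46. It thus differed from WT by 0.91 and 1.101 on the log2 scale in the single mutants (SE 0.20), by 0.38 in eS6A-Δ6SA and by 0.22 in eS6A-HA. Of the 4 cyclins it had the smallest log2 fold change in eS6A-Δ6SA.

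CDKB2;1 (AT1G76540, chromosome 1), a kinase whose transcripts peak around G2 and mitosis, had the most even replicates among the 10 genes, its chi-square within groups being 0.394 per degree of freedom against 0.816 to 1.78 in the others. Its counts were 46.2, 45.4 and 47.7 in WT, 114, 110 and 108 in rps6a, and 104, 100 and 98.8 in rps6b. They were 40.1, 47.3 and 40.4 in eS6A-HA and 69.7, 87.1 and 90.7 in eS6A-Δ6SA. The groups did not overlap, except WT and eS6A-HA. The order was rps6a, rps6b, eS6A-Δ6SA, then WT and eS6A-HA. Its log2 fold changes against WT were 1.23, 1.102, −0.12 and 0.81 (SE 0.15) in rps6a, rps6b, eS6A-HA and eS6A-Δ6SA. The log2 difference between rps6a and rps6b was 0.13 (SE 0.15), less than its standard error although the libraries did not overlap. All rps6a libraries lay above all rps6b libraries in 10.3% of all tested genes.

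CDKB2;2 (AT1G20930, chromosome 1) differed less. It averaged 23.1 ± 7.29 in WT, 31.8 ± 4.10 in rps6a, 39.1 ± 5.37 in rps6b, and then 29.6 ± 4.99 in eS6A-Δ6SA and 23.1 ± 4.32 in eS6A-HA. Its log2 fold change was 0.77 (SE 0.24) in rps6b, where no library overlapped WT, and 0.48 (SE 0.24) in rps6a, where 1 library did. The other gene of the pair accordingly took 67.2% ± 7.67 of their summed counts in WT, 77.7% ± 1.86 in rps6a and 72.1% ± 2.704 in rps6b.

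The CDKB1 genes, kinases already expressed in S and G2 phases, had low counts in all genotypes. CDKB1;1 (AT3G54180, chromosome 3) had counts of 18.97, 18.2 and 11.4 in WT, 29.0, 18.3 and 20.9 in rps6a, and 27.4, 19.6 and 19.8 in rps6b. Its counts were 12.3, 9.71 and 16.9 in eS6A-HA and 9.50, 16.0 and 13.4 in eS6A-Δ6SA. Neighbouring groups overlapped, apart from rps6b and WT, where the gap was under 1 normalized count. Its log2 fold changes were 0.47 and 0.45 in the single mutants, −0.30 in eS6A-Δ6SA and −0.30 in eS6A-HA (SE 0.30). It was the single member of the 10 whose mean in eS6A-Δ6SA was below WT. CDKB1;2 (AT2G38620, chromosome 2) was the lowest of the 10, at 8.66 ± 5.43 in WT, 11.6 ± 4.61 in rps6a, 13.7 ± 2.995 in rps6b, and then 12.6 ± 2.79 in eS6A-Δ6SA and 5.24 ± 1.35 in eS6A-HA. Its change in rps6a rested on WT replicate 3, at 2.86, since without that library the log2 fold change was −0.04. The summed level of both CDKB1 genes was 1.38 times WT in rps6a and 1.45 times in rps6b, against 2.04 and 2.01 times for the CDKB2 pair. The single genes were less distinct, with log2 fold changes in rps6a of 0.47 and 0.52 for the CDKB1 genes and 0.48 for CDKB2;2. In eS6A-Δ6SA against eS6A-HA the log2 difference of CDKB1;2 was 1.12 (SE 0.42), the second largest of the 10 after CDC20.1 at 1.265. It rested on 4 to 6 reads per eS6A-HA library and 9 to 13 per eS6A-Δ6SA library. With size factors its limma adjusted p was not under 0.05. Its rank is uncertain, since CDC20.2 at 1.03 and CYCB1;2 at 0.96 lay within its SE. The CDKB1 pair had 12 to 51 recovered reads per library.

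CDC20.1 (AT4G33270) and CDC20.2 (AT4G33260), the activators of the APC/C at anaphase, summed to 0.737 times WT in eS6A-HA and 1.73 times in eS6A-Δ6SA, against 0.955 and 1.67 times for the B1 cyclins and 0.889 and 1.46 times for the CDKB genes. CDC20.1 had counts of 62.8, 57.2 and 54.4 in WT, 149, 122 and 111 in rps6a, and 118, 106 and 99.7 in rps6b. In eS6A-HA the counts were 35.0, 43.7 and 39.3, and in eS6A-Δ6SA they were 84.4, 119 and 86.6. All eS6A-HA libraries were below all WT libraries, with a log2 fold change of −0.56 (SE 0.15). CDC20.1 was the single member of the 10 with that pattern, which 7.7% of all tested genes also had. Its log2 fold changes against WT were 1.11 in rps6a, 0.88 in rps6b and 0.71 in eS6A-Δ6SA. CDC20.2 averaged 21.0 ± 5.45 in WT, 48.3 ± 2.23 in rps6a, 47.8 ± 2.80 in rps6b, and then 40.4 ± 9.90 in eS6A-Δ6SA and 19.01 ± 2.05 in eS6A-HA. CDC20.1 held 73.7% ± 3.88 of the counts of the pair in WT, 72.3% ± 2.27 in rps6a, 69.3% ± 1.78 in rps6b, and then 70.7% ± 2.57 in eS6A-Δ6SA and 67.4% ± 2.95 in eS6A-HA. These shares carry the uncertainty of the shared stretches.

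Levels of different genes were compared per kilobase of annotated exon. In WT, CDKB2;1 was highest at 34.0 ± 0.844 normalized counts per kilobase, followed by CYCB1;2 at 31.1 ± 4.11 and CDC20.1 at 27.7 ± 2.06. These neighbours overlapped within their spread. CDKB2;2 at 16.6 ± 5.23, CYCB1;4 at 15.3 ± 4.22, CYCB1;1 at 12.3 ± 5.11, CDKB1;1 at 11.7 ± 2.997 and CDC20.2 at 10.8 ± 2.81 followed, each within the spread of the next. CYCB1;3 at 7.27 ± 0.747 and CDKB1;2 at 5.65 ± 3.54 were lowest. In rps6a, CYCB1;1 reached 32.0 ± 5.39 normalized counts per kilobase and was above CDKB2;2 at 22.8 ± 2.94, the reverse of their order in WT, where their spreads overlapped.

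**Figure D3:**
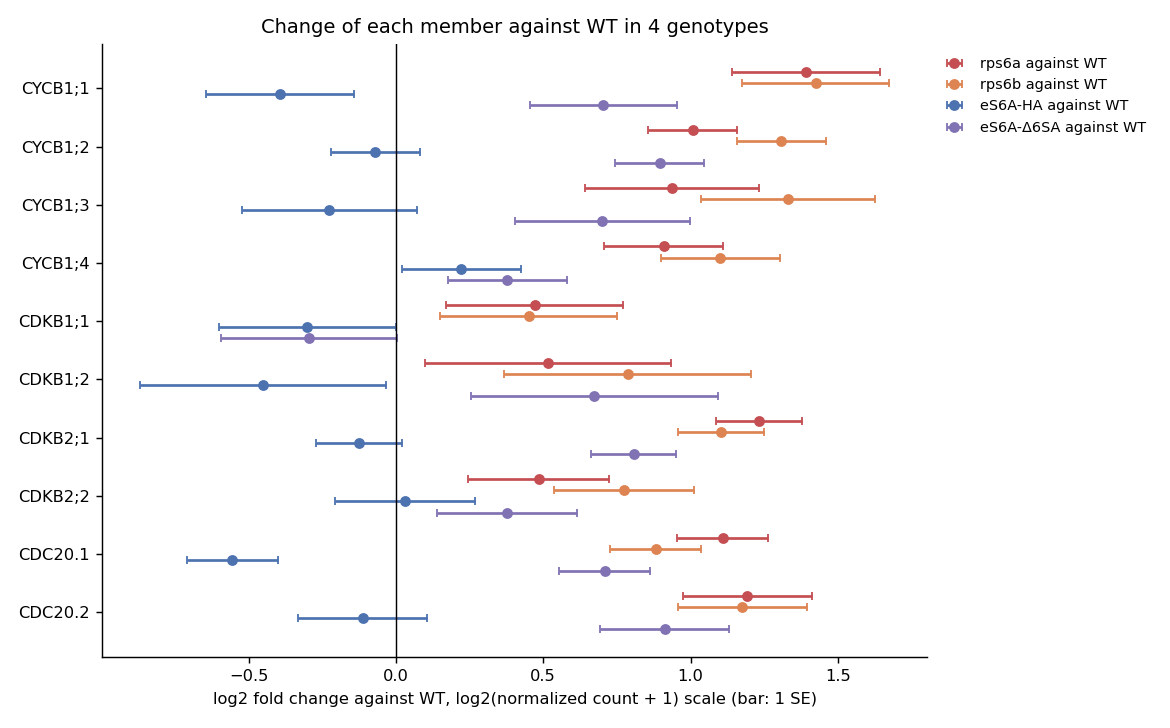
Log2 fold change against WT, on the log2(normalized count + 1) scale (horizontal axis), of each gene (rows) in 4 genotypes (colours). Bars are 1 standard error of the fit over all 15 libraries. The rps6a and rps6b points lie to the right of 0 for all 10 genes, and 8 of the 10 eS6A-HA points lie to the left of it.

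Set against all genes, the differences of the members stand as follows. A gene was called when its limma p, adjusted by Benjamini-Hochberg over 16335 tested genes, was under 0.05. All 10 members passed the filter of a mean of at least 10 normalized counts over the 15 libraries. CDKB1;2, at 8.66 in WT and 5.24 in eS6A-HA, passed only through the groups where it was higher. In rps6a against WT, 7 members were called higher, where 10.4% of all tested genes were, and the median log2 fold change of the 10 was 0.97. In rps6b it was 8 members, where 11.6% of all tested genes were called higher, with a median of 1.102. The medians over all tested genes were −0.0058 and −0.0063. In eS6A-HA against WT, 0 members were called in limma, where 0.551% of all genes were called higher, 0.245% lower and 0.796% in either direction. An unadjusted p under 0.05 was seen for 1 member, and edgeR and DESeq2 also called 0. The median there was −0.18. With spike-in scaling 9 members were called higher in rps6a and 8 in rps6b. Since the members were chosen with these contrasts in view, nothing is read from these counts.

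In eS6A-Δ6SA, 4 members were called higher against WT, where 1.33% of all tested genes were, and 5 against eS6A-HA, where 1.23% were called higher, 1.4% lower and 2.63% in either direction. The 4 were CYCB1;2, CDKB2;1 and both CDC20 genes, and CYCB1;1 was added against eS6A-HA. Medians were 0.70 against WT and 0.95 against eS6A-HA. Both comparisons use the eS6A-Δ6SA libraries, and without replicate 2 of that group the counts became 2 and 4. With spike-in scaling 7 were called against eS6A-HA and 4 against WT. RPS6A, the gene at which reads of the transgene are counted where the sequences match, stood at 1827 ± 57.4 normalized counts in eS6A-HA against 1239 ± 137 in eS6A-Δ6SA, and the part of this difference in the result was not tested. In rps6a against rps6b, 0 members were called in limma, edgeR or DESeq2, where limma called 1.3% of all genes higher, 1.62% lower and 2.92% in either direction. Unadjusted p was under 0.05 for 0 of the 10. With spike-in scaling CDC20.1 and CDKB2;1 were called higher in rps6a than in rps6b. The log2 difference ranged from −0.39 for CYCB1;3 to 0.23 for CDC20.1.

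Counted by libraries alone, all rps6a values exceeded all WT values in 7 members, where this held for 16.9% of all tested genes. The number was 9 in rps6b, where it held for 18.3% and the reverse for 18.5%, with CDKB1;2 as the exception. In eS6A-Δ6SA it was 5 against WT, where it held for 8.2% and the reverse for 8.5%, and 6 against eS6A-HA, where it held for 9.72%. In eS6A-HA against WT it was 0, where it held for 8.63%.

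As a check of the labels, RPS6A had 60.5 to 85.5 normalized counts in rps6a against 824 to 1062 in WT, and RPS6B had 253 to 276 in rps6b against 899 to 978 in WT. RPS6B was at 58.4 to 95.9 in both transgene groups. Libraries held 5726410 to 10009723 gene reads, of which the 10 members together took 221 to 787. Spike-in RNAs took 4.39% to 6.08% of all reads. Scaling by the spike-ins in place of size factors moved the median of all genes by 0.35 in rps6a against WT, by 0.14 in eS6A-Δ6SA against WT, by 0.21 in eS6A-Δ6SA against eS6A-HA and by 0.39 in rps6a against rps6b. The members' median was then 1.32 in rps6a against WT, 1.16 in eS6A-Δ6SA against eS6A-HA and 0.27 in rps6a against rps6b. The sign of the difference between rps6a and rps6b thus depends on the scaling.

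Other genes of the division cycle were taken from 9 lists with 100 genes, of which 78 were tested. Against WT, 23 of them rose in rps6a, 29 in rps6b, 7 in eS6A-Δ6SA and 0 in eS6A-HA. Against eS6A-HA, 12 rose in eS6A-Δ6SA. In rps6a against rps6b 0 were called by limma, with 8 at an unadjusted p under 0.05, and NAC044 alone was called by edgeR and by DESeq2. None of the 78 fell in any of the 6 comparisons by limma, edgeR or DESeq2 with all libraries. Without WT replicate 1, KRP4 was called lower in rps6a and rps6b by limma. The shares of all tested genes called higher are given above. The median log2 fold changes of the 78 were 0.28, 0.32, −0.07 and 0.21 against WT in rps6a, rps6b, eS6A-HA and eS6A-Δ6SA, and 0.26 in eS6A-Δ6SA against eS6A-HA. An unadjusted p was under 0.05 for 8 of them in eS6A-HA, and edgeR and DESeq2 called 0 there. With spike-in scaling, 47 rose in rps6a, 26 in rps6b, 24 in eS6A-Δ6SA against eS6A-HA and 12 in rps6a against rps6b. Without WT replicate 1, NAC044 was called in eS6A-HA. Without eS6A-Δ6SA replicate 2 the counts in eS6A-Δ6SA were 4 against WT and 7 against eS6A-HA.

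**Figure D4:**
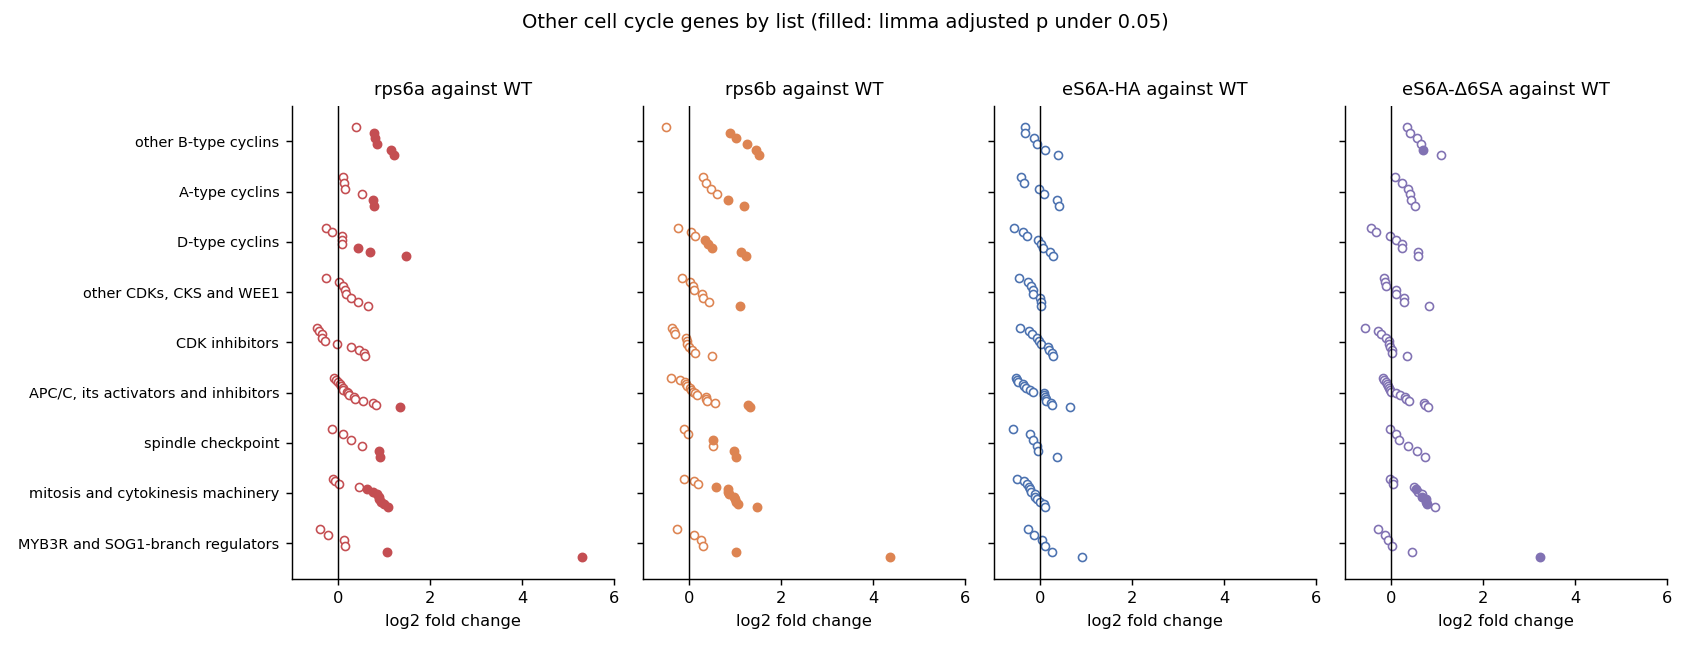
Log2 fold change against WT (horizontal axis, log2(normalized count + 1) scale) of the 78 other cell cycle genes tested, by list (rows) and genotype (panels). Each point is a gene, and filled points have a limma adjusted p under 0.05. Filled points number 23, 29, 0 and 7 in the panels from left to right, all of them to the right of 0.

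Of the 6 other B-type cyclins tested, 5 rose in each single mutant by limma. In rps6a edgeR called 4, without CYCB3;1, and DESeq2 called 3, without CYCB2;1 as well. CYCB2;4, a B2-type cyclin, rose in rps6a from 42.4 ± 3.61 to 101 ± 17.4 normalized counts (log2 fold change 1.22, limma adjusted p = 4.8e-06). In rps6b it reached 103 ± 21.2 (1.25, adjusted p = 3.1e-06). CYCB2;2 stood at 21.0 ± 0.816 in WT and rose to 38.0 ± 10.1 in rps6a (adjusted p = 0.0072) and 59.9 ± 8.91 in rps6b (adjusted p = 3.7e-06), by limma. CYCB2;1 rose from 6.03 ± 1.55 to 14.4 ± 2.64 in rps6a and 19.2 ± 5.22 in rps6b. CYCB3;1 had 12.5 ± 5.84, 22.1 ± 4.06 and 24.8 ± 3.54 in the same order, with limma adjusted p of 0.043 and 0.013. In eS6A-Δ6SA only CYCB2;4 passed, at 70.2 ± 18.4, with a limma adjusted p of 0.035 against WT and 0.0087 against eS6A-HA, and the call against WT was not made by edgeR or DESeq2. The rps6a calls of CYCB3;1, CYCB2;1 and CYCB2;2 were lost without single libraries (4, 2 and 1 of 6), with adjusted p up to 0.252, 0.0905 and 0.0616. In the same order, those libraries were WT replicates 2 and 3 and rps6a replicates 1 and 2, replicate 2 of each group, and rps6a replicate 3. In rps6b the call of CYCB3;1 was lost without WT or rps6b replicate 3 (up to 0.114). The calls of CYCB2;4 in eS6A-Δ6SA were lost without replicate 2 or 3 of that group, without WT replicate 2 or 3 and without eS6A-HA replicate 3 (up to 0.204 and 0.0910).

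Of the A-type cyclins, which act from S phase into mitosis, 2 of 6 tested rose in both single mutants. They were CYCA1;1, at 34.9 ± 3.69 in WT, 60.9 ± 14.1 in rps6a and 80.9 ± 11.3 in rps6b, and CYCA3;2, at 29.1 ± 5.63, 50.8 ± 5.67 and 53.4 ± 9.68. Limma adjusted p were 0.0024 and 8.3e-06 for the former, and 0.0031 and 0.0014 for the latter. D-type cyclins, which act early in the cycle at the exit from G1, rose in 3 of 8 tested in rps6a and 5 of 8 in rps6b by limma. DESeq2 called 1 in rps6a, CYCD4;1, and 4 in rps6b. CYCD4;1 went from the WT level of 7.32 ± 0.769 to 22.6 ± 6.60 in rps6a and 18.8 ± 3.24 in rps6b, with limma adjusted p of 0.0029 and 0.011. CYCD3;3 rose from 21.7 ± 7.59 to 34.4 ± 2.67 and 47.6 ± 8.63, and CYCD2;1 from 80.7 ± 6.15 to 109 ± 1.264 and 114 ± 8.07. CYCD3;2 rose in rps6b, from 200 ± 24.2 to 264 ± 11.5. The rps6a calls of CYCD3;3 and CYCD2;1 were each lost without any of WT replicates 2 and 3 and rps6a replicates 1 and 2, with limma adjusted p up to 0.218 and 0.0861. In rps6b, that of CYCD3;2 was lost without WT replicate 3 (0.0845) and that of CYCD4;1 without rps6b replicate 1 (0.0547).

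Among other CDKs and their partners, 0 of 8 were called in rps6a by limma, edgeR or DESeq2 and 0 had an unadjusted p under 0.05. With spike-in scaling 5 of the 8 were called higher there, CDKD;1, CDKD;3, CDKF;1, CKS2 and CDKA;1. The last, the main CDK of the whole cycle, stood at 159 ± 10.1 normalized counts in WT, 162 ± 2.60 in rps6a and 168 ± 6.59 in rps6b, with adjusted p of 0.89 and 0.66. CDKD;1, a CDK-activating kinase, rose in rps6b from 9.10 ± 4.57 to 19.5 ± 3.48 (limma adjusted p = 0.024). That call was lost without WT replicate 2 or 3 or rps6b replicate 1 (adjusted p up to 0.146), and DESeq2 did not make it. Of the CDK inhibitors, 0 of 10 tested were called in any comparison by limma, edgeR or DESeq2 with all libraries. KRP4 averaged 146 ± 21.1 normalized counts in WT, 114 ± 8.45 in rps6a and 117 ± 3.44 in rps6b. Without WT replicate 1 it was called lower in both, with limma adjusted p of 0.019 and 0.028 and log2 fold changes of −0.46 and −0.42. An unadjusted p was under 0.05 for 3 in rps6a, 2 in rps6b and 1 in rps6a against rps6b, and the medians in rps6a and rps6b were −0.15 and −0.05. With spike-in scaling KRP2, KRP6 and KRP7 were called higher in rps6a.

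The APC/C list held 16 tested genes, of which 1 rose in rps6a and 2 in rps6b by limma. OSD1, an inhibitor of the APC/C, rose from 8.20 ± 2.16 to 22.7 ± 7.75 in rps6a and 21.5 ± 5.01 in rps6b (limma adjusted p = 0.0019 and 0.0026). PANS1, which protects cohesion at centromeres, rose in rps6b from 16.9 ± 8.16 to 40.8 ± 4.19 (adjusted p = 0.0092 by limma, 0.0576 without WT replicate 3). CCS52B, another APC/C activator, was at 31.6 ± 6.44 in WT, 54.4 ± 13.3 in rps6a, 47.8 ± 13.3 in rps6b, and then 52.1 ± 9.44 in eS6A-Δ6SA and 24.5 ± 12.1 in eS6A-HA. In rps6a it did not pass by limma (adjusted p = 0.084) but was called higher by edgeR and DESeq2, which thus called 2 genes of this list there. It rose in eS6A-Δ6SA against eS6A-HA (limma adjusted p = 0.039), a call that was lost without eS6A-HA replicate 1 or 3 or eS6A-Δ6SA replicate 2 or 3 (up to 0.152). Of 6 spindle checkpoint genes tested, which hold CDC20 inactive until chromosomes are attached, MAD2 and BUBR1 rose in both single mutants. MAD2 went from 39.0 ± 4.23 to 73.0 ± 3.91 in rps6a and 80.2 ± 13.6 in rps6b, and BUBR1 from 26.9 ± 9.35 to 50.05 ± 5.93 and 52.1 ± 4.44. Limma adjusted p were 0.00015 and 2.4e-05 for MAD2 and 0.0027 and 0.0013 for BUBR1. BUBR1 also rose in eS6A-Δ6SA, to 39.5 ± 9.54, against 16.8 ± 0.277 in eS6A-HA (adjusted p = 0.0018). BUB3.1 passed in rps6b alone, at 73.7 ± 13.1 against 51.0 ± 7.74 (0.038). It no longer passed without WT replicate 1 or 3 or rps6b replicate 2 (up to 0.222), nor by DESeq2.

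The list of spindle and cytokinesis machinery had the highest number of calls, with 8 of 12 tested in rps6a and 9 of 12 in rps6b. The other B-type cyclins, a shorter list, had a higher share by limma, with 5 of 6 tested in each single mutant. In eS6A-Δ6SA 5 of the 12 rose against WT and 8 against eS6A-HA by limma. In the latter edgeR called 7, without EDE1, and DESeq2 called 5, without AUR1 and KNOLLE as well. TPX2, a spindle assembly factor, stood at 93.5 ± 8.11 in WT, 176 ± 33.2 in rps6a, 191 ± 13.8 in rps6b, and then 160 ± 20.6 in eS6A-Δ6SA and 79.8 ± 7.56 in eS6A-HA. HINKEL, a kinesin of cytokinesis, stood at 92.8 ± 11.3, 167 ± 12.8, 195 ± 12.8, 160 ± 18.3 and 80.7 ± 8.94 in the same order. Against WT, limma adjusted p in rps6a, rps6b and eS6A-Δ6SA were 3.0e-06, 2.6e-07 and 0.00029 for TPX2 and 3.8e-06, 4.7e-08 and 0.00011 for HINKEL. MAP65-3, which bundles microtubules in the phragmoplast, rose from the WT level of 67.3 ± 16.7 to 104 ± 22.2 in rps6a and 120 ± 12.3 in rps6b. EDE1, a microtubule-associated protein of the spindle, rose from 9.52 ± 2.15 to 21.4 ± 4.57 and 27.96 ± 3.05. In rps6a the call of MAP65-3 was lost without WT replicate 2 or rps6a replicate 1 (limma adjusted p up to 0.0776), and that of EDE1 without rps6a replicate 1 (0.0559).

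Among the regulators, MYB3R4, an activator of G2 and mitosis genes through the MSA element, and NAC044, which SOG1 switches on in Arabidopsis after DNA damage, rose in both single mutants. MYB3R4 went from the WT level of 42.1 ± 9.81 to 86.9 ± 3.84 in rps6a and 85.3 ± 13.6 in rps6b (limma adjusted p = 1.9e-05 and 3.1e-05). In eS6A-Δ6SA it was at 57.0 ± 6.44 and did not pass (adjusted p = 0.19). NAC044 had 0 to 3 reads in WT libraries and 2 to 4 in eS6A-HA libraries. It had 76 to 101 reads in rps6a, 46 to 55 in rps6b and 12 to 25 in eS6A-Δ6SA. Against 3 reads per WT library, its level was at least 26.5-fold higher in rps6a, 13.5-fold in rps6b and 6.33-fold in eS6A-Δ6SA. Limma adjusted p were 5.5e-12, 4.1e-10 and 2.0e-06. The other 4 regulators tested were not called in any comparison by limma, edgeR or DESeq2, and with spike-in scaling MYB3R1 was called higher in rps6a. Among them, SOG1 stood at 38.1 normalized counts in WT, 42.8 in rps6a and 47.6 in rps6b, and MYB3R3, a repressor of the same genes, at 39.3, 29.3 and 32.1.

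Markers of dividing and other tissues moved with part of this pattern. The 6 stomatal lineage markers summed to between 199 and 283 normalized counts in WT, between 262 and 363 in rps6a and between 365 and 419 in rps6b. The sums were 244 to 303 in eS6A-Δ6SA and 269 to 313 in eS6A-HA. Of the 6, 2 rose in rps6a (EPF2 and BASL, of which DESeq2 called BASL only) and 4 in rps6b (SPCH, MUTE, TMM and BASL). None was called against WT in eS6A-HA or eS6A-Δ6SA by limma, edgeR or DESeq2, with 2 and 1 at an unadjusted p under 0.05. With spike-in scaling all 6 were called higher in rps6a. In eS6A-HA each library's sum was above that of 2 WT libraries. Of 8 markers of the shoot meristem and young leaf, WUS and CLV3, which define the stem cell region, were not among the genes used here. The other 6 summed to between 543 and 572 in WT, 620 and 664 in rps6a, 684 and 739 in rps6b, and then 532 and 582 in eS6A-Δ6SA and 524 and 604 in eS6A-HA. STM and GRF5 rose in both single mutants and CLV1 in rps6b by limma. DESeq2 called 0 of the 6 in rps6a, and 3 in rps6b. The part of these markers in the result was not tested.

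Of 8 root markers, 5 were in the table, and none passed the filter on low values. They summed to between 0.908 and 5.72 normalized counts in WT, 23.0 and 33.4 in rps6a, 6.52 and 11.8 in rps6b, and then 5.73 and 12.7 in eS6A-Δ6SA and 5.14 and 11.2 in eS6A-HA. In rps6a they were thus above every library of the other genotypes, at a highest single value of 20.06, and their part in the result was not tested. The 3 green leaf markers summed to between 83913 and 103541 normalized counts in WT, 70786 and 95857 in rps6a, and 81155 and 89191 in rps6b. LHCB2.1, a light-harvesting protein, averaged 15127 in WT and fell to 9355 in rps6a and 11617 in rps6b. LHCB1.1, another, averaged 24203 in WT, fell to 19400 in rps6a and stood at 22901 in rps6b. RBCS1A, a subunit of Rubisco, stood at 52024, 52213 and 50872 in WT, rps6a and rps6b and was not called. With spike-in scaling RBCS1A was called higher in rps6a, and LHCB1.1 was not called there.

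Genes with the closest pattern were sought over the 15 libraries, by the root mean square difference between standardized log2 profiles. The search took 10156 genes outside the group with a mean of at least 50 normalized counts. Only 3 of the 10 members reach that mean, and CYCB1;1 does not, so genes at its level were not searched. For CYCB1;1, the nearest genes outside the group were AT5G55520 at 0.290, MDAR6 at 0.346, GLB1 at 0.346, POK1 at 0.348 and AT4G30020 at 0.352. For the mean profile of the other 9 members they were POK1 at 0.259, TPX2 at 0.287, AT5G66230 at 0.293, TRM7 at 0.295 and AT3G20150 at 0.296. The median over all genes compared was 1.49. POK1, a kinesin that guides the division plane, occurred in both rankings, and had 65.2 ± 10.5 normalized counts in WT, 110 ± 2.75 in rps6a, 118 ± 9.94 in rps6b, and then 94.0 ± 9.20 in eS6A-Δ6SA and 50.7 ± 2.09 in eS6A-HA. Within the group, the member farthest from CYCB1;1 was CDKB1;1 at 0.872, and CDC20.2 was the nearest at 0.387. These values describe likeness across 15 libraries of 5 genotypes and unequal depth, so differences between genotypes enter into them.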

How the data were processed

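Total RNA of seedling shoots was depleted of ribosomal RNA and sequenced as paired ends of 75 bases with ERCC spike-in RNAs, per the labels' protocols. The authors deposited a signal per gene and library, namely DESeq2-normalized counts. STAR 2.7.6a, featureCounts 2.0.0, DESeq2 1.26.0 and the build TAIR10 are named in the submitters' processing notes. Parameters, strand use and filters are not given in the sources used here. Coordinates and names come from RefSeq TAIR10.1, in which 21565 of 21777 identifiers matched.

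Each library's values were whole multiples of a single step, so reads were recovered, with 100% of positive values whole within 0.01 read. The 77 spike-in rows stayed out of the tests, and out of library sizes in the edgeR and DESeq2 runs on recovered reads. Whether they entered the size factors of the deposited counts is not given in the sources used here. The chi-square per degree of freedom between replicates was 1.71 to 5.32, above sampling noise, and each library was 1 replicate. In rps6a against WT, 3575 genes were called by edgeR and 2765 by DESeq2 from recovered reads.

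The main fit was limma 3.58.1 (R 4.3.3) using the robust and trend options, on log2(normalized count + 1) of all 15 libraries, with a coefficient per genotype, for genes with a mean of at least 10. That mean was taken over all 15 libraries. The log2(normalized count + 1) scale understates changes of low genes. P-values are two-sided and adjusted by Benjamini-Hochberg over 16335 genes. A check on simulated data for rps6a against WT, in which 200 of 16335 genes were given a 2-fold change, recovered 88% of them, and 4.35% of its calls were false. Its genes were of all levels, with a spread set by level alone, and 3468 were called in the data. Both shares thus need not hold for low genes such as many described here. Alternatives used edgeR 4.0.16 and DESeq2 1.42.0 on recovered reads, other scalings, filters and pseudocounts, a replicate term and the omission of single libraries.

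The members and lists were chosen with earlier results of these data known. Each list names up to 4 genes with the largest log2 fold change among those called, plus genes needed to say that they were low. CDKA;1, SOG1 and MYB3R3 were named for that reason, and POK1, KRP4, the green leaf markers and the genes listed under single alternatives were named after their values were seen.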

Additional observations from a re-analysis of the deposited data

Results flagged for a closer look

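In these results the effects of a pair of genotypes differed by a limma test of the difference itself, adjusted over all tested genes. Both genotypes share the WT control, so the difference equals their direct comparison.

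Between eS6A-Δ6SA and eS6A-HA, 12 of the 78 cell cycle genes outside the group differed, all higher in eS6A-Δ6SA. The rule for named genes takes 8 of them, whose log2 differences were 2.31 for NAC044, 1.18 for CCS52B, 1.16 for BUBR1, 1.08 for MAP65-3, 1.07 for EDE1, 0.99 for TPX2, 0.98 for HINKEL and 0.81 for CYCB2;4. Libraries of the groups did not overlap for any of the 8, but the 8 were called on these same libraries, so this adds no support. All eS6A-Δ6SA libraries lay above all eS6A-HA libraries in 9.72% of all tested genes. The calls of CCS52B, EDE1 and CYCB2;4 were lost without single libraries, with adjusted p up to 0.152, 0.221 and 0.0910. The EDE1 call was also lost with no filter, with only the groups compared, and by edgeR and DESeq2.

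Between rps6a and rps6b, TMM, a receptor of the stomatal lineage, was lower in rps6a by a log2 difference of −0.56. LHCB2.1 and LHCB1.1, light-harvesting proteins with near-identical copies that can share reads, were lower in rps6a by −0.31 and −0.24. LHCB1.1 was not called by edgeR, and with spike-in scaling none of the 3 was called in this comparison.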

How the results depend on the processing

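The median log2 fold change of the 10 members kept its sign under all alternatives, except in rps6a against rps6b. There it was −0.11 in the main fit, 0.13 over the 3 members with a mean of at least 50, 0.27 with spike-in scaling and −0.033 over the 5 members that share no stretch of 75 bases with another gene, an alternative chosen after seeing the data. With spike-in scaling the medians were 1.32 in rps6a against WT and 1.16 in eS6A-Δ6SA against eS6A-HA. Without single libraries they ranged over 0.90 to 1.06 in rps6a against WT, 0.93 to 1.20 for rps6b, −0.27 to −0.09 for eS6A-HA and 0.59 to 0.80 for eS6A-Δ6SA. The ranges were 0.87 to 1.08 in eS6A-Δ6SA against eS6A-HA and −0.23 to −0.052 in rps6a against rps6b. Calls among the 78 other genes then numbered 18 to 26, 22 to 30, 0 to 1, 4 to 9, 7 to 14 and 0 to 0 in that order of comparisons. A mean of at least 50 left 31 of these genes, of which 11 were called in rps6a and 14 in rps6b. Spike-in scaling gave 47 calls in rps6a against WT, 24 in eS6A-Δ6SA against eS6A-HA and 12 in rps6a against rps6b. In the last, 1 was called by edgeR, 1 by DESeq2 and 1 from only the groups compared. Over all genes, spike-in scaling gave 6071 calls in rps6a against WT (3468 in the main fit), 47 in eS6A-HA against WT (130), 923 in eS6A-Δ6SA against eS6A-HA (429) and 6036 in rps6a against rps6b (477). Without single libraries all-gene calls ranged over 2721 to 3263, 3007 to 3591, 65 to 129, 250 to 432, 241 to 570 and 293 to 358. The lowest were without WT replicate 2, rps6b replicate 2, eS6A-HA replicate 1, WT replicate 2, eS6A-HA replicate 3 and rps6a replicate 1. Other drops of over 1.5 times came without WT replicate 2 (69), eS6A-HA replicates 2 (80) and 3 (69) in eS6A-HA against WT, eS6A-HA replicate 1 (279) and eS6A-Δ6SA replicate 3 (255) in eS6A-Δ6SA against eS6A-HA, and rps6b replicate 3 (316) in rps6a against rps6b. The cause of these changes was not tested. Of 753 re-runs of named list genes 692 kept their call, 61 lost it and 0 reversed. A lone left-out library leaves 2 in its group.

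Whether replicate numbers pair the libraries is not settled by these values. Correlations of same-numbered libraries' deviations ran from −0.156 to 0.182, and those of differently numbered libraries from −0.199 to 0.191. In no comparison did all 3 same-numbered pairs exceed 0.1, but in rps6a against WT 2 of the 3 did. With the replicate block, calls over all genes were 3544, 3855, 135, 457, 461 and 534. Each was above its number in the main fit, which was 3468, 3800, 130, 420, 429 and 477. The members' medians stayed at 0.97, 1.102, −0.18, 0.70, 0.95 and −0.11. Every genotype holds each replicate number once, so a replicate term cannot move these medians, and they say nothing of pairing. The CDKB1 genes had 3 to 35 reads per library, which limits their precision.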
